A study of Homo sapiens with 3 samples.

Results

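By their labels, the samples compared were MDA-MB-231 cells transfected with an FBP1 expression vector and MDA-MB-231 cells transfected with the empty vector. Every gene with a probe on the array was considered. A gene entered the comparison when its brightest probe had a detection p-value under 0.01 on either of these arrays, which 12402 of 19950 genes did. MDA-MB-231 is an established line of triple-negative breast cancer with a mesenchymal-like phenotype. There was 1 array for cells labelled as overexpressing FBP1 and 1 for the empty vector control. Another array, of a control named wt whose handling the sources used here do not give, entered the normalisation. Its values stand beside the others and enter no difference. All 3 cultures grew in DMEM with 10% serum and antibiotics at 37 °C and 5% CO2, and total RNA at 100 ng/µl was labelled with Cy3 for Illumina bead arrays. The time after transfection, the promoter of the vector, and any selection or cloning of the cells are not stated in the sources used here.

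FBP1 encodes fructose-1,6-bisphosphatase 1, the gluconeogenic enzyme that removes a phosphate from fructose 1,6-bisphosphate and so runs against the phosphofructokinase step of glycolysis. It is expressed in liver and kidney and in luminal breast epithelium, and is commonly silenced in basal-like breast cancer, the class that holds this line. Forced expression in such cells is used to ask how gluconeogenic flux bears on growth, inflammation and cell identity.

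With 1 array a group there was no replicate error and no test, so every value below is a difference between single arrays and genes were counted by its size. "Level" means normalised log2 intensity, and "difference" means the level on the FBP1 array minus the level on the empty vector array. Of the 3 arrays, 1 did not match its label when they were set against each other, and with 1 array a group no result can be given without it. The names FBP1 cells, empty vector cells and wt cells below are therefore those of the labels and not established identities. At the same detection limit, 20190, 20168 and 20117 probes were detected on the FBP1, empty vector and wt arrays. Median signals were 91.7, 94.6 and 93.7 intensity units in the same order.

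The labelled cell type was checked against defining markers. Of 16 markers of MDA-MB-231 cells, 15 were detected on each of the 3 arrays. Their summed signal was 54319 in FBP1 cells, 58105 in empty vector cells and 53211 in wt cells. VIM, the intermediate filament of mesenchymal cells, had levels of 13.40, 13.71 and 13.67 on these arrays. Of 15 luminal breast markers, 10, 10 and 9 were detected on the FBP1, empty vector and wt arrays. KRT19 had levels of 11.24, 11.17 and 10.74, while ESR1, PGR, GATA3 and TFF1 were detected on no array. Of 17 blood cell markers, 5, 6 and 5 were detected, with PTPRC, CD3D and SPI1 not detected on any array. Of 14 endothelial markers, 4, 5 and 4 were detected, with CDH5 and VWF not detected on any array. Of 12 fibroblast markers, 5, 5 and 4 were detected, with DCN and LUM not detected on any array. CDKN2A, a cell-cycle inhibitor gene that is deleted in MDA-MB-231, is named here after its values were seen. Its brightest probe gave signals of 120.6 in FBP1 cells, where it was detected, against 88.9 in empty vector cells and 89.0 in wt cells, where it was not. On a second CDKN2A probe, also not detected on the empty vector array, the FBP1 array was at least 1.4-fold higher. MTAP, its neighbour in the same deletion, gave signals of 107.5, 97.7 and 85.1 and was likewise detected on the FBP1 array only. The part of these values in the differences below was not tested.

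FBP1 had levels of 10.06 in FBP1 cells, 9.22 in empty vector cells and 8.77 in wt cells, from 1 probe. It was thus detected on all 3 arrays, and its difference of 0.84 was exceeded by 315 genes. Where this probe lies relative to the insert of the vector is not stated in the sources used here. FBP2, the muscle isoenzyme, was detected on no array.

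Most genes had similar levels on both arrays. Of the 12402 genes, 10815 (87.2%) differed by less than 1.5-fold, the median difference was -0.01 and the SD across genes was 0.41. At least 1.5-fold, 836 genes (6.74%) were higher on the FBP1 array and 751 (6.06%) lower. At least 2-fold, 162 (1.31%) were higher and 121 (0.976%) lower. At least 4-fold, 12 were higher and 3 lower. Of the 836 higher genes, 134 were detected on the FBP1 array only, and 150 of the 751 lower genes on the empty vector array only. The balance of both directions shifted with brightness. Among 2438 genes with a mean level of 5 to 6, 227 were at least 1.5-fold higher and 264 lower. Among 1440 genes at 10 to 12 the counts were 83 and 32, and among 333 genes at 12 or more they were 22 and 3. The plot of differences by level shows this shift as more points above the upper line than below the lower one at its right. Of 5697 detected probes without a gene name, 7.99% were at least 1.5-fold higher and 5.62% lower, and 1.16% at least 2-fold higher and 0.772% lower.

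**Figure D1:**
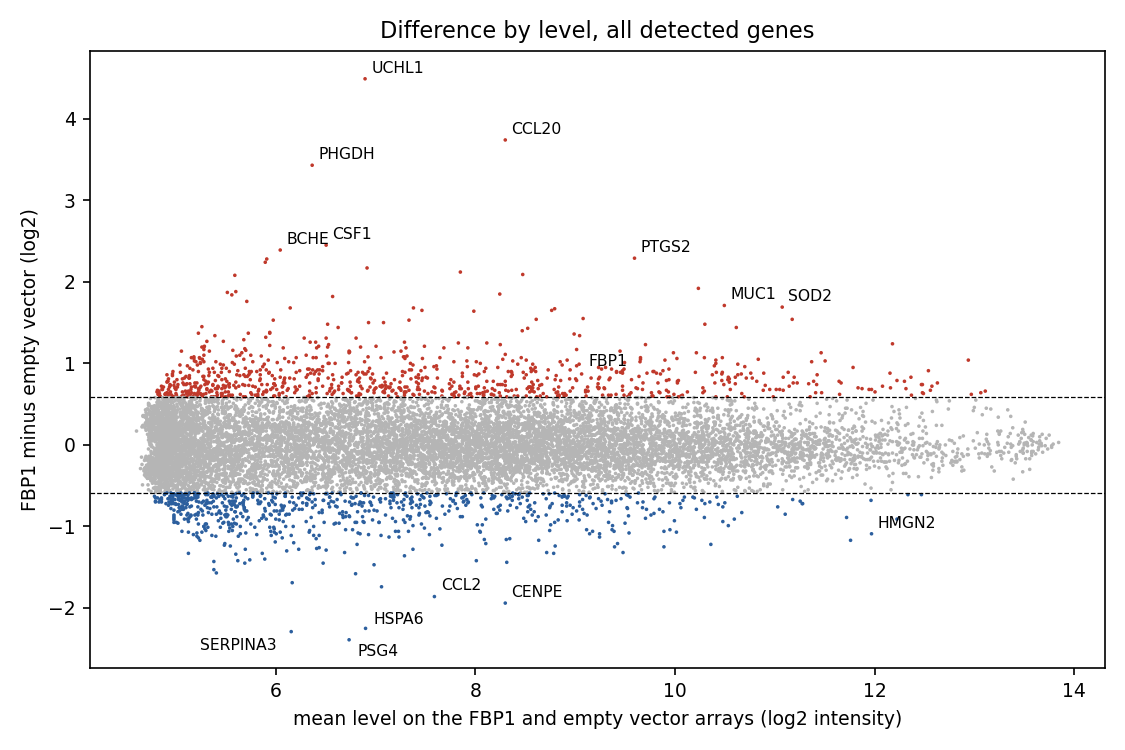
Difference between the FBP1 and empty vector arrays (log2, vertical axis) against the mean level on these arrays (log2 intensity, horizontal axis) for 12402 detected genes, 1 point a gene. Dashed lines mark 1.5-fold, with 836 higher genes in red and 751 lower genes in blue, and UCHL1, CCL20 and PHGDH stand highest.

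A second detected probe gave a check within the same pair of arrays. It measures the same RNA samples, so it bears on single probes and not on differences between cultures, and whether both probes read the same transcript form was not tested. Of 3354 genes with such a probe, 237 (7.07%) were at least 1.5-fold higher on the brightest probe and 181 (5.4%) lower. Over all 3354 second probes, 192 (5.72%) were at least 1.5-fold higher and 200 (5.96%) lower. Among the 237 higher genes, the second probe was also at least 1.5-fold higher for 72 (30.4%), on the same side of 0 for 175 (73.8%), and at least 1.5-fold lower for 7. Among the 181 lower genes, it was also at least 1.5-fold lower for 66 (36.5%), on the same side for 146 (80.7%), and at least 1.5-fold higher for 2. At 2-fold, 48 genes (1.43%) were higher and 30 (0.894%) lower on the brightest probe, and 14 and 5 of these passed 2-fold on the second probe too. Second probes alone gave 32 genes (0.954%) at least 2-fold higher and 22 (0.656%) lower.

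How well both probes matched followed the brightness of the second one. Where the second probe had a mean level under 6, it also passed 1.5-fold for 27 of 138 higher genes and 16 of 98 lower genes. At levels of 6 to 8 it did so for 28 of 69 and 34 of 63. At 8 or more it did so for 17 of 30 higher genes and for 16 of 20 lower genes, all 20 of which lay on the same side of 0. The median gap between both probes' differences was 0.32, 0.20 and 0.12 in these 3 ranges, and 0.21 overall with a 95th percentile of 0.82. A gap between probes of 1 gene corresponded to an SD of 0.28 for a single difference. The 95th percentile gap was 0.94, 0.73 and 0.42 in the same ranges, so a 1.5-fold difference lay within the spread between probes in the dimmer ranges and outside it in the brightest.

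**Figure D2:**
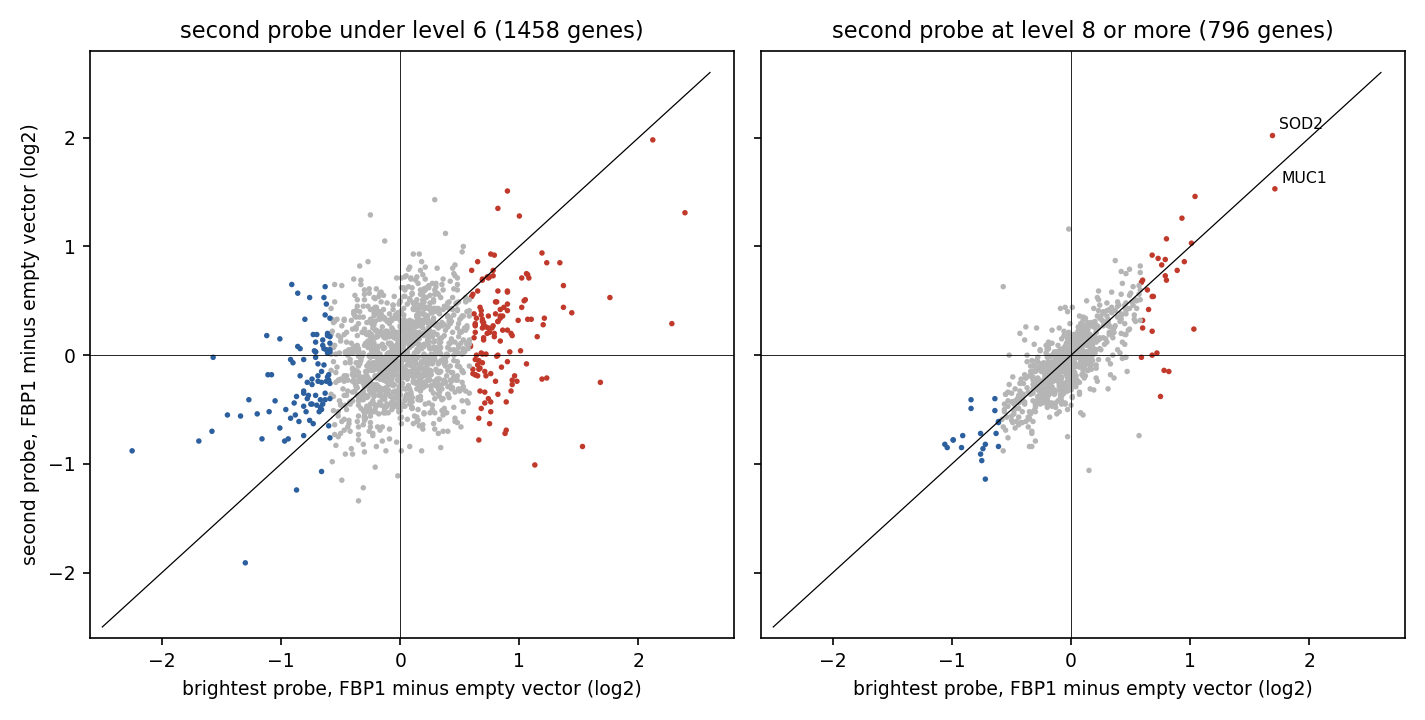
Difference on the second detected probe against the difference on the brightest probe of the same gene (both FBP1 minus empty vector, log2), for second probes under level 6 (left) and at level 8 or more (right). Red and blue points are genes at least 1.5-fold higher and lower on the brightest probe, the diagonal marks equal differences, and points lie nearer to it at the right.

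The genes that stood highest on both probes included enzymes and secreted or membrane-bound products of inflammation. PTGS2, the inducible cyclooxygenase that starts prostaglandin synthesis, had levels of 10.74 in FBP1 cells, 8.45 in empty vector cells and 9.77 in wt cells. Its second probe gave 8.64, 6.24 and 7.89, so both probes put the wt array between the others, and the differences were 2.29 and 2.40. LTB, a membrane-bound ligand of the TNF family, had levels of 8.91, 6.79 and 5.67 on the brightest probe, a 4.33-fold difference, and was at least 3.9-fold higher on the second. CSF1, the growth factor of macrophages, was at 7.73, 5.28 and 5.20, with the wt array beside the empty vector array. On its second probe, at 7.04, 5.96 and 5.03, the wt array lay below the empty vector array by nearly as much as the FBP1 array lay above it. Its probes gave unequal sizes, 5.47-fold and 2.11-fold. CXCL8, a chemokine that attracts neutrophils, was at 13.46 in FBP1 cells, 12.42 in empty vector cells and 13.55 in wt cells, so the empty vector array was the low one. TNFSF15, another TNF family ligand, differed by 0.96 and 1.63. CSF3, the granulocyte growth factor, differed by 1.02 and 0.71. Of the chemokine and cytokine genes with 1 detected probe, CCL20 was 13.3-fold higher, IL1A, an early inflammatory cytokine, 4.26-fold, and EBI3, a cytokine subunit, 3.14-fold. IL1A was at 9.52 in FBP1 cells, 7.43 in empty vector cells and 8.91 in wt cells, so its wt level was nearer to the FBP1 level. For CCL20 (10.17, 6.43 and 7.11) and EBI3 (8.29, 6.64 and 6.42) the wt level was nearer to the empty vector level. CCL2, which attracts monocytes, was lower on the FBP1 array, with levels of 6.66 in FBP1 cells, 8.52 in empty vector cells and 11.04 in wt cells.

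Several metabolic enzymes and their regulators stood among the genes higher on both probes. SOD2, the manganese superoxide dismutase of mitochondria, was at 11.92, 10.23 and 11.08 on the FBP1, empty vector and wt arrays, and its second probe at 10.22, 8.20 and 8.67. Both probes lay well above the dim range, and the differences were 1.69 and 2.02. COXFA4L3, related to a subunit of cytochrome c oxidase, differed by 1.54 and 1.23. CTH, which makes cysteine from cystathionine, differed by 1.19 and 0.94. CBS, the enzyme just before it, has 1 detected probe. It was detected on the FBP1 array only and was at least 3.4-fold higher there. INSIG1, which holds the sterol sensor in the endoplasmic reticulum, differed by 0.87 and 1.31. The cholesterol synthesis enzymes DHCR7 (0.89 and 0.78) and MSMO1 (0.79 and 0.97) also passed 1.5-fold on both probes. Of enzymes of hexosamine use, GFPT1, which starts that pathway, differed by 0.66 and 0.91, and OGT, which attaches its product to proteins, by 0.76 and 0.83. DHCR7, MSMO1, GFPT1, OGT and CSF3 were picked from the 72 higher genes after their values were seen.

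Other genes among the 25 highest on both probes encode surface, secreted and signalling proteins. MUC1, a mucin of the apical cell surface, was at 11.35 in FBP1 cells, 9.64 in empty vector cells and 8.65 in wt cells, and its second probe at 9.45, 7.92 and 6.79. The wt array was the lowest on both probes. AGR2, a disulfide isomerase of secretory epithelium, was 2.53-fold higher on its brightest probe and at least 1.8-fold on its second. FAM83A, which is linked to EGFR signalling, was at 8.0, 5.83 and 5.54, with differences of 2.17 and 1.67. GPER1, a G protein-coupled receptor for oestrogen, differed by 1.25 and 1.04, and GRB10, an adaptor of the insulin receptor, by 1.17 and 0.90. BCHE, a cholinesterase, was not detected on the empty vector array and was at least 5.2-fold and at least 2.2-fold higher by both probes. CST4, a secreted cystatin whose gene has close copies that its probes may also read, differed by 1.01 and 1.03. Its levels of 10.00 in FBP1 cells and 8.99 in empty vector cells both stood far above the 6.63 in wt cells. IFIT3, an interferon-induced gene, differed by 0.93 and 1.26. Over the 25 genes highest on both probes, the wt level on the brightest probe was nearer to the empty vector level for 22 and nearer to the FBP1 level for the other 3, PTGS2, SOD2 and CXCL8. SOD2 was almost midway on that probe, and on its second probe the wt level was nearer to the empty vector level.

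The genes lowest on both probes included many genes of mitosis. CENPE, a motor of the kinetochore, was at 7.33 in FBP1 cells, 9.27 in empty vector cells and 9.38 in wt cells, and its second probe at 6.70, 8.53 and 8.5. Both controls had near-equal levels, and the differences were -1.94 and -1.83. SPC25, a subunit of the NDC80 complex that binds microtubules, differed by -0.87 and -1.24. The kinases NEK2, which splits centrosomes, and AURKA, which builds spindle poles, differed by -1.06 and -0.86 and by -0.76 and -0.91. UBE2C, the ubiquitin-conjugating enzyme of the anaphase-promoting complex, differed by -0.91 and -0.84, and DLGAP5, a spindle protein, by -1.06 and -0.82. FOXM1, the transcription factor of late cell-cycle genes, was at 8.14, 9.0 and 8.69, with differences of -0.86 and -0.82. CDK1 (-0.72 and -0.82), the kinase that starts mitosis, and the replication genes MCM10 (-0.64 and -0.91) and RFC3 (-0.88 and -0.68) are further examples, picked after their values were seen. HMGN2, a nucleosome-binding protein, was at 11.42, 12.52 and 12.34, with differences of -1.09 and -1.59, and H2AC18, a histone gene with near-identical copies, differed by -1.04 and -0.85.

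Other genes low on both probes act at the cell surface or in inflammation. PTGFRN, a membrane protein of tetraspanin complexes, was 2.45-fold lower on its brightest probe and at least 3.7-fold lower on its second, on which it was not detected on the FBP1 array. LRIG1, which dampens receptors of the EGFR family, was at 7.5, 8.71 and 8.56, with differences of -1.21 and -1.17. CASP1, the caspase that activates interleukin 1 beta, was at 6.80, 7.86 and 8.52, and the differences were -1.06 and -1.0. IL7R, the interleukin 7 receptor chain, was at 5.32 in FBP1 cells, 7.01 in empty vector cells and 8.65 in wt cells, so the controls were themselves far apart. HSPA6, an inducible heat shock protein with close copies, had the same order at 5.78, 8.02 and 10.05. COL8A1, a collagen chain, was at 10.04, 11.03 and 12.10, and MATN2, a matrix adaptor, at 7.73, 8.89 and 9.69, again with the wt array highest. For PMEPA1, a feedback inhibitor of TGF-beta signalling, the empty vector array stood alone, with 8.88 in FBP1 cells, 9.87 in empty vector cells and 8.62 in wt cells. PDSS1, which builds the tail of coenzyme Q, differed by -0.88 and -1.07. LEF1, a transcription factor of Wnt signalling (-1.13 and -0.74), and CXCR4, a chemokine receptor (-1.01 and -0.67), were picked from the 66 lower genes after their values were seen. Over the 25 genes lowest on both probes, the wt level on the brightest probe was nearer to the empty vector level for 23 and above both other levels for 13.

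**Figure D3:**
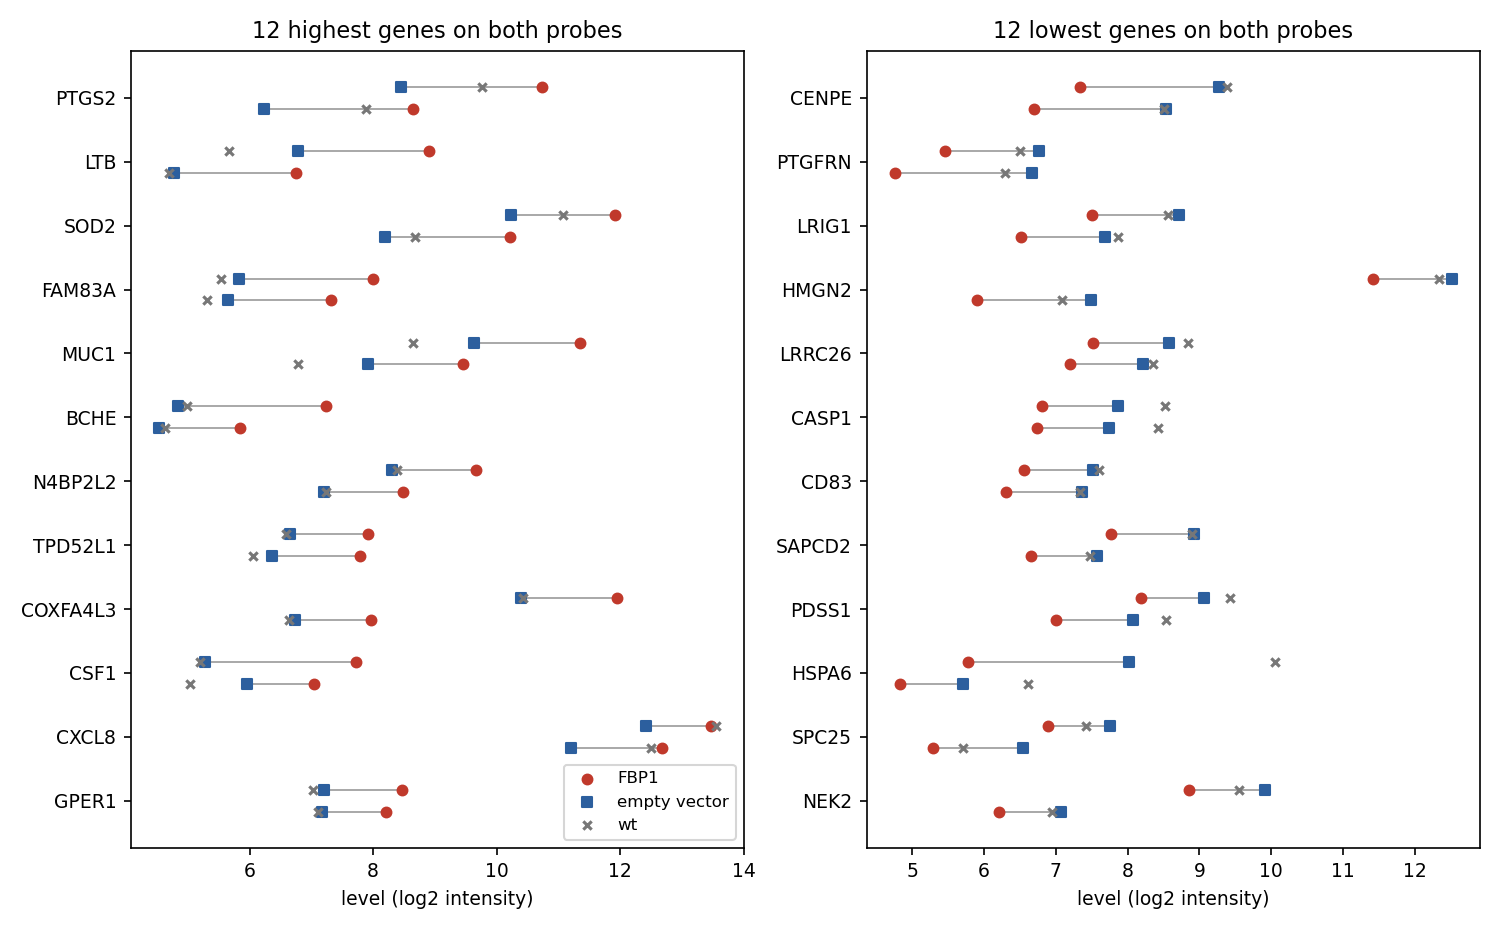
Levels (log2 intensity) of the 12 highest (left) and 12 lowest (right) genes on both probes, with the brightest probe in the upper line of each gene and the second in the lower line. Red circles are the FBP1 array, blue squares the empty vector array and grey crosses the wt array, and the line joins FBP1 and empty vector. The wt array stands near the empty vector array for most genes and beside or above the FBP1 array for CXCL8.

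For 9 genes the measured levels of both probes passed 1.5-fold in opposite directions. SLC25A51, the mitochondrial NAD carrier, differed by 1.13 on its brightest probe and by -1.01 on its second. AGFG2 differed by 1.53 on its brightest probe and was at least 1.5-fold lower on its second, and CHRNA5, a nicotinic receptor subunit, differed by 1.04 and -0.60. INCENP, the scaffold of the chromosome passenger complex, differed by -0.63 and 0.63. The others were ZNF682, ST6GAL1, SPN, PLA2G2D and CYP4F3. For PLA2G2D and CYP4F3 the second probe was not detected on one of these arrays, and the bounds on its difference, 1.4-fold and 1.3-fold, were under 1.5-fold. In each of the 9 the second probe was the dimmer by construction, and its levels on the FBP1 and empty vector arrays lay between 4.49 and 6.35.

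Genes with only 1 detected probe held the largest differences and had no such check. UCHL1, a deubiquitinase of neurons, was at least 21.6-fold higher and PHGDH, the first enzyme of serine synthesis, at least 10.4-fold, neither being detected on the empty vector array. CDH1, which encodes E-cadherin, and FOXA1, a pioneer factor of luminal cells, were detected on the FBP1 array only and were at least 3.5-fold and at least 3.3-fold higher. Of genes detected on both arrays, CFB, a complement protease, was at 11.20, 9.27 and 9.01. ITGA10, an integrin chain that binds collagen, was at 9.17, 7.32 and 6.34. ABCC3, an export pump for conjugated compounds, was at 9.59, 7.94 and 7.86, and SCNN1A, a subunit of the epithelial sodium channel, at 8.80, 7.17 and 5.94. GDF15, a stress-induced cytokine, was at 9.63, 7.96 and 8.28, and LCN2, which binds iron-carrying siderophores, at 11.04, 9.56 and 10.47. Each of these 6 was highest on the FBP1 array, and the wt array was below the empty vector array for CFB, ITGA10, ABCC3 and SCNN1A.

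Among the lowest of the genes with 1 detected probe, PSG4, a pregnancy-specific glycoprotein with close copies, was at 5.54 in FBP1 cells, 7.93 in empty vector cells and 9.04 in wt cells. PSG4 has 3 probes, of which only this 1 was detected on the FBP1 or the empty vector array. SERPINA3, an acute-phase protease inhibitor, was at 5.01, 7.30 and 7.42, and MAOA, monoamine oxidase A, at 7.30, 8.72 and 9.45. BEGAIN, a protein of neuronal synapses, was at 6.19, 7.93 and 7.22. The mitotic genes CDCA2, CENPI, CDCA3, SGO2 and KIF20A were also among the 25 lowest, between 2.49-fold and 2.78-fold lower. CENPI and SGO2 have 2 probes each, of which 1 was detected. Of these 25 genes, 3 were not detected on the FBP1 array, and TFF2, a secreted trefoil peptide, was at least 2.7-fold lower. For COL24A1, a collagen chain not detected on the FBP1 or the wt array, the empty vector array was the only one with a detected signal.

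Promoter sequence was then set beside the differences. The choice of genes did not use it, but several of the motifs searched belong to processes described in this report. RefSeq promoters of 300 bases (250 before and 50 from the annotated start on, build GRCh38.p14) were matched to 9902 of the 12402 genes by gene ID, among them 654 of the genes at least 1.5-fold higher and 585 of those at least 1.5-fold lower. Each motif was searched on both strands, and a match is a description of letters, not a binding site. The letters TTTGAA of the cell-cycle homology region, an element of many late cell-cycle promoters, stood in 19% of the lower genes' promoters, 8.26% of the higher genes' and 10.3% of all. With 2-fold genes the shares were 26.1% and 6.35%. CCAAT, the box bound by NF-Y that often accompanies it, stood in 41.9%, 34.1% and 37.0%. The E2F letters TTTGGCGC stood in 2.22%, 0.459% and 1.02%, which rests on 13 lower and 3 higher genes, and in no promoter of the 92 lower and 126 higher genes at 2-fold. Of 21 lower genes of the centromere and spindle families with a promoter, 13 held TTTGAA, and among the other 564 lower genes 98 (17.4%) did. These others were not chosen to leave out cell-cycle genes, and include CCNB2 and TOP2A, whose promoters hold the letters.

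Promoter windows of 4 lower genes with TTTGAA are shown in the direction of transcription, 5′ to 3′, with the match in capitals and up to 50 bases on each side, because of the motifs searched this one's share differed most, in percentage points, between lower and higher genes. CCNB2 is a mitotic cyclin (2.33-fold lower), CDCA3 triggers degradation of a mitotic inhibitor (2.50-fold lower), PLK1 is a kinase of mitotic entry (1.92-fold lower) and CDC20 activates the anaphase-promoting complex (1.86-fold lower).
CCNB2 chr15:59105067-59105172 (+ strand): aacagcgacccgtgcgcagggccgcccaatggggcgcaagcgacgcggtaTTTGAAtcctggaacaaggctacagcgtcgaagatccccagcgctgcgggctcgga
CDCA3 chr12:6851237-6851339 (- strand): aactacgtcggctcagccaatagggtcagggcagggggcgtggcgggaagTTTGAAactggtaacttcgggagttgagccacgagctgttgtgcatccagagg
PLK1 chr16:23678810-23678915 (+ strand): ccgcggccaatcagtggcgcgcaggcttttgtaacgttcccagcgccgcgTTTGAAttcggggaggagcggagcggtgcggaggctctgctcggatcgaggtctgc
CDC20 chr1:43358866-43358971 (+ strand): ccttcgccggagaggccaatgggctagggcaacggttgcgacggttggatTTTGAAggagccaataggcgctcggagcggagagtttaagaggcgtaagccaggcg
In CCNB2 and PLK1 the match starts 29 bases before the annotated start, in CDCA3 3 bases before it and in CDC20 65 bases before it, and CDC20 holds another match in its promoter outside the window. All 4 windows also hold the letters CCAAT, in lower case, upstream of the match.

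Letters of NF-kB sites were rare. Both forms searched are spelled out by the capitals of the windows below, the one in CXCL1 and CXCL2 and the other in LTB. The CXCL1 form stood in the promoters of 7 higher genes (1.07%), 1 lower gene (0.171%) and 0.212% of all, and the LTB form in those of 3 higher genes (0.459%), 2 lower genes (0.342%) and 0.222% of all. With 2-fold higher genes the share for the CXCL1 form was 3.17%, which is 4 of 126. CXCL1 and CXCL2, whose windows are nearly alike, are among these 4. For the LTB form, the counts of 3 and 2 give no direction. The windows are those of LTB, for CXCL1 and CXCL2, which are chemokines for neutrophils, and for NFKBIA, the inhibitor that NF-kB itself induces. These 4 were chosen, after their values were seen, for their known place in inflammation, and capitals mark the match as it reads on the gene's strand.
LTB chr6:31582452-31582561 (- strand): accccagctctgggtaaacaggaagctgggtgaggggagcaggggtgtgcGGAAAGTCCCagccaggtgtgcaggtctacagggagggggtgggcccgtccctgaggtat
CXCL1 chr4:73869264-73869373 (+ strand): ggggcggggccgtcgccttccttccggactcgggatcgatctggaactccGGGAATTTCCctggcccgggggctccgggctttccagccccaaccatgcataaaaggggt
CXCL2 chr4:74099214-74099323 (- strand): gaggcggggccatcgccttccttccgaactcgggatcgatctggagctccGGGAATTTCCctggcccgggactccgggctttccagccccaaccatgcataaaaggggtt
NFKBIA chr14:35404771-35404880 (- strand): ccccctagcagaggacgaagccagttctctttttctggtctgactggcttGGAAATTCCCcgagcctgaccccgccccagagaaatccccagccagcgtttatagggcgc
In LTB and NFKBIA the match lies on the opposite strand and so reads as its reverse complement. CXCL1 had levels of 11.33 in FBP1 cells, 9.90 in empty vector cells and 10.80 in wt cells, and CXCL2 9.17, 7.77 and 8.77. The wt array lay between the others for both chemokines. NFKBIA was at 12.59, 11.72 and 11.59, where the controls were close to each other.

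Letters of interferon-stimulated elements, which are TTTC on each side of any 2 bases, stood in 4.59% of the higher genes' promoters (30 genes), 3.08% of the lower genes' (18 genes) and 2.95% of all. With 2-fold genes the order turned, with 3.97% of the higher and 6.52% of the lower, or 5 and 6 genes. CXCL10, a chemokine for T cells, and IFIT3 are shown as higher genes whose promoters hold them, with every match in the window in capitals.
CXCL10 chr4:76023659-76023747 (- strand): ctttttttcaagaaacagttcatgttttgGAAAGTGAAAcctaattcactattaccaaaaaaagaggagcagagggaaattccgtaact
IFIT3 chr10:89327825-89327934 (+ strand): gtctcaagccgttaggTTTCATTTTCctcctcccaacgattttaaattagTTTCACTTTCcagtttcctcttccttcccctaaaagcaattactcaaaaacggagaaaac
CXCL10 had levels of 6.28, 5.10 and 5.42 on the FBP1, empty vector and wt arrays, and IFIT3 of 9.96, 9.02 and 9.31. IFIT3 holds 2 matches. The remaining motifs were TGACTCA of AP-1 (3.98% of higher, 2.91% of lower and 3.05% of all), the E-box CACGTG (8.41%, 8.72% and 10.3%), the cAMP element TGACGTCA (2.75%, 3.25% and 3.25%), the hypoxia core ACGTG, which is also part of the E-box (25.1%, 24.4% and 26.8%), and the sterol element letters TCACNCCAC (1.07%, 0.855% and 1.14%).

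**Figure D4:**
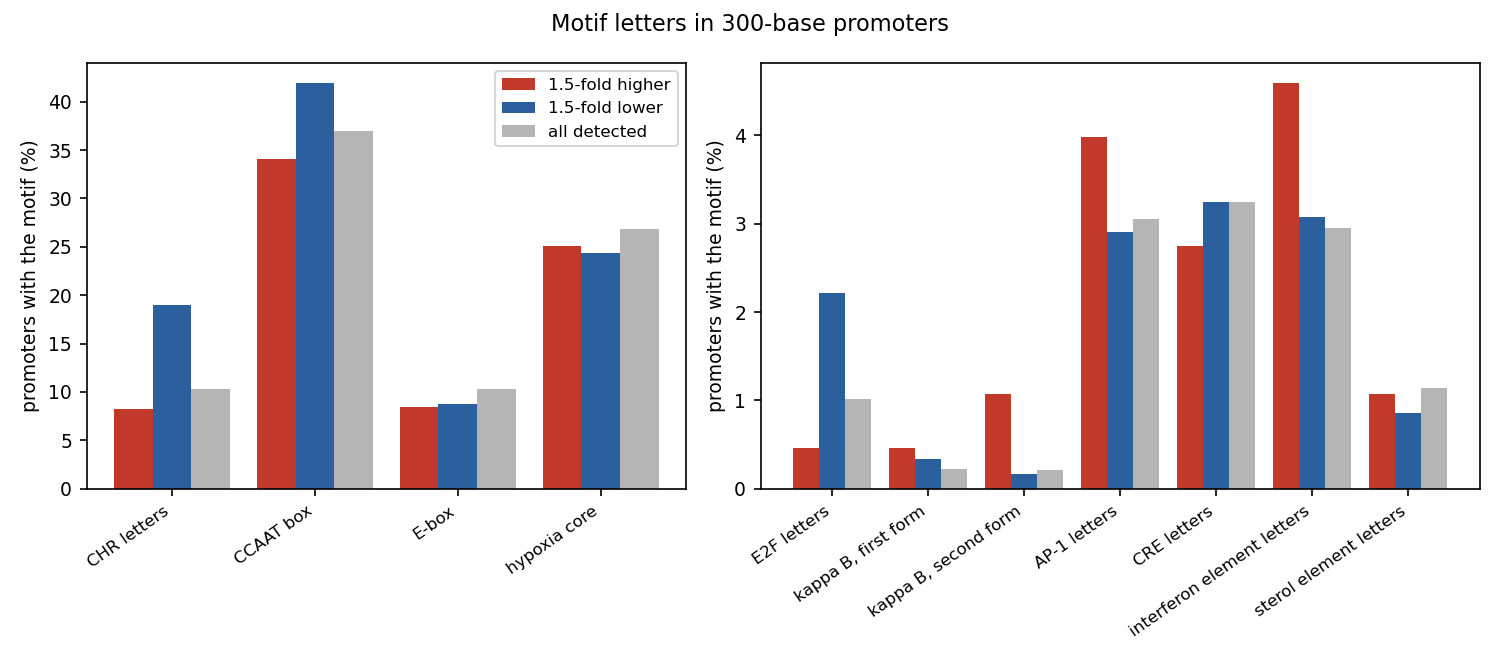
Share of 300-base promoters that hold each motif on either strand (%), for genes at least 1.5-fold higher (red, 654), at least 1.5-fold lower (blue, 585) and all detected genes with a promoter (grey, 9902), common motifs at the left and rare ones at the right. The cell-cycle homology letters stand in 19% of lower and 8.26% of higher genes' promoters.

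Gene families were described next, each by its detected members, the number at least 1.5-fold higher or lower and the median difference, against the all-gene shares of 6.74% and 6.06% and the median of -0.01. There were 100 families and lists. Relative to the all-gene median, the sign of the family median held for 90 of them under the 5 other scalings of the intensities, and the 10 that turned had medians within 0.08 of it. Both forms of median scaling among these differ by a constant for each array, so they give the same relative values by construction. All the scalings re-express the same arrays, so this bears on scaling only and not on differences between cultures or between probes.

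Families of chromosome segregation held many lower genes and no higher ones. Of 21 detected centromere and CENP genes, 11 were at least 1.5-fold lower and none was that much higher, and the median was -0.62 (-0.34 relative to all genes with the authors' processed values). CENPF, a kinetochore protein of late cell cycle, was at 9.26 in FBP1 cells, 10.52 in empty vector cells and 9.99 in wt cells. CENPI, part of the constitutive centromere network, was 2.51-fold lower, and CENPA, the histone that marks centromeres, differed by -0.62 and -0.93 on its probes. CENPS was the member whose second probe went the other way, with -0.82 and 0.13. Of all 21 members, 7 had a second detected probe, and 2 of these 7 were at least 1.5-fold lower on both probes. The median of the 7 second probes was -0.45. Of 30 genes of the spindle checkpoint and the chromosome passenger complex, 13 were lower and none higher, with a median of -0.57. INCENP is counted among the 13 by its brightest probe, although its second probe went the other way. SGO2, which guards centromere cohesion, was 2.50-fold lower, PLK1 1.92-fold, and the checkpoint kinase BUB1 1.71-fold. Of all 30 members, 11 had a second detected probe, and 5 of these 11 were at least 1.5-fold lower on both probes. The median of the 11 second probes was -0.61.

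Smaller shifts in the same direction were seen in some other families of genome maintenance. Of 19 cohesin and condensin genes, 4 were lower and none higher, with a median of -0.20, and TOP2A, the topoisomerase that resolves sister chromatids, was at 10.68, 11.53 and 11.19. Of 16 cyclins, CCNA1, CCNB2, CCNA2 and CCNE1 were lower and CCNG2 higher. Of 29 mismatch and excision repair genes, 5 were lower and none higher. NEIL3, a DNA glycosylase, was 2.33-fold lower, and EXO1, an exonuclease of mismatch repair, differed by -0.82 and -0.91 on its probes. Of 12 Fanconi anaemia genes, FANCG and FANCI were lower, with a median of -0.35. Of 26 genes of purine and pyrimidine synthesis, 5 were lower, none was higher, and the median was -0.22. RRM2 and RRM1, the subunits of ribonucleotide reductase, differed by -0.90 and -0.69, and DUT, which keeps uracil out of DNA, by -0.74 and -0.86 on its probes. Of 19 tubulins, which have close copies, TUBB3, TUBA3D and TUBB2A were lower and none was higher. Of 18 E2F and pocket protein genes, FOXM1, E2F8 and LIN37 were lower, and the median was -0.13. Second detected probes existed for 11 cohesin and condensin genes, 7 cyclins, 6 tubulins and 3 Fanconi anaemia genes. None of these was at least 1.5-fold lower on both probes. Their second-probe medians were -0.11, -0.13, -0.34 and -0.22, and the brightest probes of those 7 cyclins had a median of 0.01. Lower on both probes were 2 of 12 repair genes, 2 of 12 of purine and pyrimidine synthesis and 1 of 3 E2F and pocket protein genes.

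Families of protein synthesis and turnover differed less. The median over 76 mitochondrial ribosomal proteins was -0.20, with 59 members below 0 and 17 above, but 2 were at least 1.5-fold higher and 2 lower. MRPS6, the highest of them, was at 13, 12.08 and 11.99. Over 72 cytosolic ribosomal proteins the median was -0.07. RPL36A (2.72-fold), RPL29 (1.89-fold and 1.8-fold on its probes) and RPL39L were lower, all with close copies. Over 41 proteasome subunits the median was -0.15, with 32 members below 0 and PSMB9, a subunit of the immunoproteasome, the only one past 1.5-fold. No member passed 1.5-fold among 9 subunits of the chaperonin CCT, 19 of the vacuolar ATPase and 11 SR splicing factors. Of 34 aminoacyl-tRNA synthetases, WARS1 was higher, and of 51 translation initiation factors 2 were higher and 1 lower. Among 27 lysosomal hydrolases, SGSH, GALNS and IDUA, which degrade glycosaminoglycans, were higher and none was lower, with a median of 0.22. The 9 of these with a second probe had a median of 0.20 on the brightest and -0.01 on the second. Of 25 autophagy genes, ATG10, GABARAPL1 and ATG7 were higher, and none was lower. RAB12, a small GTPase of recycling endosomes, was at 6.55, 5.33 and 5.84.

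Chromatin and transcription families went in both directions. Of 16 histone deacetylases and sirtuins, SIRT4, HDAC7, HDAC5, SIRT7 and SIRT6 were between 1.55-fold and 1.77-fold higher and none was lower, with a median of 0.18. All 5 were dim, with levels between 5.14 and 6.72 on the FBP1 and empty vector arrays, and had no second detected probe. The 4 members with 1 had a median of 0.13 on the brightest probe and -0.01 on the second. Of 13 histone demethylases of the KDM family, KDM3A was higher, and the median was 0.32. Of 352 zinc finger genes of the ZNF series, 33 were higher and 15 lower, with a median of 0.05, and 77 of them had a second probe. On both probes ZNF114 was higher and ZNF280D lower. Of 16 AP-1 genes on the array, 13 were detected and ATF3, a stress-induced member, was 2.00-fold higher. KLF4, a factor of epithelial barrier cells, differed by 0.80 and 0.81 on its probes, and KLF15, a glucocorticoid-induced factor, by -0.95. Of 10 bHLH repressors of the ID, HES and HEY groups, HES4, ID3 and ID1 were lower and BHLHE40 higher, with a median of -0.35, and the 3 with a second probe had a median of 0.20 on it. BMAL1, a core activator of the circadian clock, was 2.31-fold higher, and PER3, a repressor of it, was lower.

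**Figure D5:**
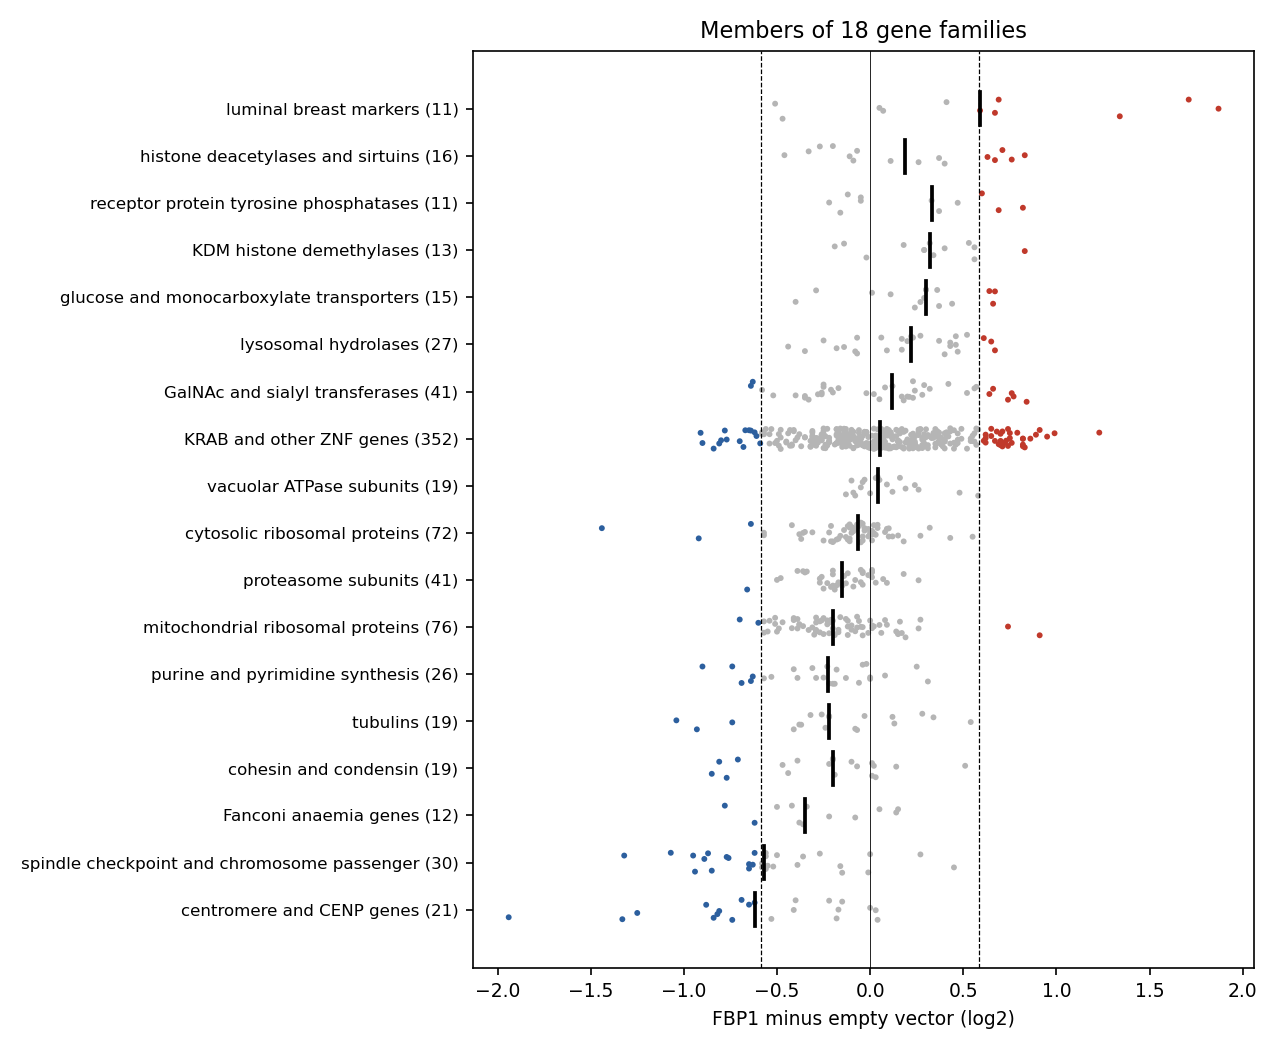
Difference (FBP1 minus empty vector, log2) of each detected member of 18 of the 100 families, picked by hand and not by rank. Each point is a gene, with the number of members in brackets and the family median as a black bar. Dashed lines mark 1.5-fold. Among those shown, the centromere (-0.62) and spindle checkpoint (-0.57) medians stand lowest and that of the luminal breast markers (0.59) highest. The carcinoembryonic and pregnancy glycoproteins (-0.60) are not shown.

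Signalling families held few large differences. Of 13 Toll-like receptor genes and adaptors, CD14, a co-receptor for lipopolysaccharide, IRAK2 and IRAK3 were higher, with a median of 0.30. CD14 was at 9.03 in FBP1 cells, 7.99 in empty vector cells and 7.80 in wt cells, and its second probe differed by 0.50. CFLAR, which blocks caspase 8, was at 8.52, 7.5 and 7.76, and none of 5 inhibitors of apoptosis passed 1.5-fold. In the BCL2 family, BMF differed by 0.78 and 0.73 on its probes. SOCS1 and SOCS6, suppressors of cytokine signalling, differed by -1.05 and -1.0 from 1 probe each, at levels of 5.04 and 5.14 on the FBP1 array and 6.09 and 6.15 on the empty vector array. VEGFC, a growth factor of lymph vessels, was at 10.33, 9.43 and 9.66, and FGFR3, a growth factor receptor, at 5.10, 6.19 and 6.06. All 10 detected genes of IGF and its binding proteins lay at or above 0, with a median of 0.30, but none passed 1.5-fold. Of 11 receptor protein tyrosine phosphatases, PTPRR, PTPRE and PTPRK were higher and none was lower. Their median of 0.33 was -0.01 with no detection filter, and the second probe of PTPRR differed by -0.36.

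In adhesion, matrix and transport families, CLDN1, a tight junction claudin, was at 7.83 in FBP1 cells, 6.75 in empty vector cells and 7.83 in wt cells, so the empty vector array stood alone. JUP, a plaque protein of desmosomes, differed by 0.61 and 0.70 on its probes. SDC4, a heparan sulphate proteoglycan, was at 9.78, 8.83 and 9.55, and GPC5, another, at 5.12, 6.03 and 4.86. For both genes the FBP1 level was nearer to the wt level than to the empty vector level, GPC5 not being detected on the wt array. SEPTIN3, a filament-forming GTPase, differed by -1.20 on its brightest probe and was at least 1.4-fold lower on its second. Of 30 myosins and tropomyosins, 5 were higher and 1 lower, with MYH15 at 6.33, 5.03 and 4.67. Of 41 GalNAc and sialyl transferases, 6 were higher and 2 lower, and ST6GAL1 among the higher ones was lower on its second probe. Of 15 glucose and monocarboxylate transporters, SLC2A3, the high-affinity glucose transporter of neurons, SLC16A12 and SLC16A5 were higher and none was lower, SLC16A5 with -0.13 on its second probe. The family median of 0.30 was 0.21 with undetected levels set to the detection limit, since 6 of the 15 members were detected on the FBP1 array only. SLC2A3 was at 10.60, 9.96 and 9.46. Of 28 ABC transporters, ABCC3 was 3.14-fold and ABCA7, which moves phospholipids, 2.39-fold higher, while ABCB8 and TAP2 were lower, TAP2 with 0.03 on its second probe. None of 7 metallothioneins and 10 peroxisome biogenesis genes passed 1.5-fold.

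Markers of luminal breast cells, a class other than that of the line, were described with the other markers. Of 15, 11 were detected on either array, and 6 of these were at least 1.5-fold higher and none lower, with a median of 0.59 (0.07 with no detection filter). The 6 were FOXA1, MUC1, AGR2, SPDEF, ELF3 and XBP1. XBP1, a factor of secretory cells, differed by 0.59 and 0.67 on its probes, and SPDEF, a factor of mucous cells, was at 6.89 in FBP1 cells, 6.2 in empty vector cells and 4.91 in wt cells. The keratins went with them in no single direction, KRT8 differing by -0.51, KRT18 by 0.05 and KRT19 by 0.07. The summed signal of all 15 was 9406 in FBP1 cells, 7116 in empty vector cells and 6237 in wt cells. Bright genes weigh most in this sum: MUC1 gave 2492.3, 878.4 and 494.9 of it, and KRT19 2327.5, 2397.2 and 1881.1. The median signal of the 15 was 158, 148 and 117 on the same arrays. Of the MDA-MB-231 markers, LOX (1.06) and IL6 (0.78) were higher, none was lower, and the median was -0.10. LOX was at 8.0, 6.94 and 7.18 on the FBP1, empty vector and wt arrays, and IL6 at 12.04, 11.25 and 11.74. For IL6 the wt level was nearer to the FBP1 level. Of the 15 luminal markers, ESR1 and PGR, the oestrogen and progesterone receptors, and GATA3 and TFF1 gave no detected signal on any array. KRT8, KRT18, KRT19 and EPCAM were detected on every array, and FOXA1 on the FBP1 array only. TFF3 went the other way, being detected on the empty vector array only, with a difference of -0.47. The part of the array that did not match its label in these values was not tested.

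Genes that encode no protein differed in direction by class. Of 124 small nucleolar RNA genes, which guide modification of ribosomal RNA, 15 (12.1%) were at least 1.5-fold lower and 1 (0.806%) higher, with a median of -0.15. SNORD16 was at 5.50 in FBP1 cells, 6.63 in empty vector cells and 6.66 in wt cells, and SNORD4A, the higher one, at 6.30, 5.20 and 6.48. Both were named after their values were seen, and for SNORD4A the empty vector array was again the low one. Of 13 detected snoRNA host genes SNHG9 was lower and none was higher, with a median of -0.16. Of 254 long non-coding RNA genes, 28 (11%) were higher and 9 (3.54%) lower. Of 73 microRNA genes, whose probes read precursor transcripts and not mature microRNAs, 8 were higher and 2 lower. Of 11662 protein-coding genes, 769 (6.59%) were higher and 704 (6.04%) lower.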

How the data were processed

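The deposited table, per the file headers, gave for each of the 3 Illumina bead arrays an average signal intensity and a detection p-value for 48107 probes, 2 of which miss a value. The authors' processed intensity values were an alternative only. Of the probes, 30112 carry 1 gene in the platform annotation, 8 several and 17985 none, and 30073 matched RefSeq by gene ID.

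The 3 arrays were background-corrected together by neqc (offset of 16, background estimated from the deposited detection p-values) and quantile normalised (limma 3.58.1, R 4.3.3). Summaries and plots used Python 3.11.15, pandas 2.3.3, numpy 2.4.6 and matplotlib 3.10.9. Each gene took the probe of highest mean level over the 3 arrays, and the next brightest detected probe was the check. Detection was a p-value under 0.01. The deposited detection p-values do not follow the intensity strictly on each array, and the background SD they gave was 4.2, 12.8 and 16.2 intensity units on the FBP1, empty vector and wt arrays. How this bears on which genes count as detected on 1 array only was not tested. Lowest detected levels were 4.68, 4.70 and 4.69 on the FBP1, empty vector and wt arrays, and a gene not detected on its dimmer array was given a lower bound, while counts of genes used the measured levels. The steps were tested on simulated arrays built from the empty vector array, with the same background on each and known folds in brighter genes only. That test therefore does not cover dim genes or arrays of unequal background. Bead counts were not used here, and 1 array a group limits the precision of every value.

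Genes were named by rank: the 25 highest and 25 lowest on both probes, the 25 highest and 25 lowest with 1 detected probe, those whose probes went opposite ways, and the members of 100 families at least 2-fold away or otherwise the 2 highest and 2 lowest. The comparison, the families and the rule were chosen with earlier results of these data known. Groupings by level, second-probe brightness, gene class and chromosome, the 10 promoters shown, and 44 genes named outside the rule were chosen after values were seen. XIST and Y-linked genes were left out. Genes with near-identical copies (H2A, PSG, ribosomal protein, tubulin, cystatin and HSP70 genes) may share probes. Alternatives changed background correction, scaling, detection limit and probe choice.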

Additional observations from a re-analysis of the deposited data

Results flagged for a closer look

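Probes without a gene name in the platform annotation took no part in the comparison and also carried differences. Of 5697 such probes detected on either array, 455 (7.99%) were brighter by at least 1.5-fold in FBP1 cells than in empty vector cells and 320 (5.62%) were dimmer. At 2-fold, 66 (1.16%) were higher and 44 (0.772%) lower. They stood out because they are signal outside the genes reported. With 1 array a group, no sample could be tested as standing apart from others of its group.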

How the results depend on the processing

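No paired analysis was possible because each group had 1 array and no replicate numbers. The main counts of genes at least 1.5-fold higher, 1.5-fold lower, 2-fold higher and 2-fold lower were 836, 751, 162 and 121, with 52.7% of the 1.5-fold genes higher. With normexp and an offset of 50, they were 405, 286, 57 and 31, with 58.6% higher. With the authors' processed values they were 264, 143, 36 and 14, with 64.9% higher. With median scaling over all probes they were 1935, 397, 408 and 52, with 83.0% higher, and the median of all genes moved to 0.21, so family medians under it were read relative to that value. With median scaling over probes detected on all arrays, chosen after seeing the data, they were 842, 987, 163 and 167, with 46.0% higher. With the second probe, which 3354 genes have, they were 192, 200, 32 and 22. Apart from the smaller number of genes with a second probe, the cause of these shifts was not tested. Normalising the FBP1 and empty vector arrays alone, no detection filter, a p-value under 0.05, detection on both arrays and the mean of probes left these counts within 1.5 times.

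By the second probe, the sign turned for AGFG2 (-0.84), CENPS (0.13), CHRNA5 (-0.60), CYP4F3 (0.65), INCENP (0.63), PLA2G2D (-0.72), PTPRR (-0.36), SLC16A5 (-0.13), SLC25A51 (-1.01), SPN (-0.63), ST6GAL1 (-0.78), TAP2 (0.03) and ZNF682 (-0.69). For AGFG2, CYP4F3, PLA2G2D, PTPRR, SPN and ST6GAL1 that probe was not detected on one of the arrays, so these are measured levels and their bounds are at least 1.5-, 1.3-, 1.4-, 1.2-, 1.5- and 1.7-fold. Of the 182 genes named, 95 moved by 0.28 or more with the authors' values and 57 with normexp and an offset of 50, and none of those past 1.5-fold turned in sign. With the mean of probes, INCENP was at 0.00 and ST6GAL1 at -0.04. Of the 100 family medians, 17 of 95 that could be had moved by 0.28 or more with the second probe, 5 with no detection filter, 3 with detection on both arrays, 2 with a p-value under 0.05 and 1 with the authors' values. Between the brightest and second probes of the same members, some family medians also changed sign. Among receptor protein tyrosine phosphatases they were 0.32 and -0.17, and among annexins 0.10 and -0.49. Others kept it, such as the spindle checkpoint family (-0.63 and -0.61) and luminal breast markers (0.59 and 0.85). How many changed sign was not counted. Dim probes limit what can be seen: where the second probe was under level 6, the 95th percentile of the gap between probes was 0.94.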

Other observations

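Genes of sphingolipid metabolism held 3 higher members of 21 and no lower one. SGPP2, a phosphatase of sphingosine 1-phosphate, was at 6.62 in FBP1 cells, 5.56 in empty vector cells and 4.93 in wt cells. SPTLC1, a subunit of the enzyme that starts sphingolipid synthesis, was at 11.29, 10.61 and 10.63, but its second probe differed by only 0.22. UGCG, which makes glucosylceramide, was at 9.13, 8.54 and 9.44, so the wt array was the highest. Among arachidonate genes, ALOX5AP, which presents arachidonate to 5-lipoxygenase, was at 7.48, 5.66 and 6.36. Of 6 pregnancy-specific glycoprotein and carcinoembryonic genes that passed the detection filter, 5 did so through the empty vector array alone, so their position below 0 follows largely from the filter. PSG6, one of these, was at least 1.6-fold lower. These genes have close copies, so their probes may read one another's transcripts.

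The shares of genes past 1.5-fold varied between chromosomes, against 6.74% higher and 6.06% lower over all genes. On chromosome 22, 33 of 295 genes (11.2%) were higher, followed by 9.6% on chromosome 21, 9.57% on chromosome 4 and 9.42% on chromosome 6. On chromosome 15, 42 of 385 (10.9%) were lower. On chromosome 8 the shares were 4.12% higher and 4.35% lower. These are descriptions of 1 array a group with no test.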
